A study of Mus musculus with 14 samples.

Results

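The 7 mouse genes that encode cyclin-dependent kinase (CDK) inhibitors were followed through bulk RNA-seq of 14 cultured clones of bone marrow skeletal cells, each grown from a single tdTomato+ cell. They were chosen by name, as the 3 members of the CIP/KIP family (Cdkn1a, Cdkn1b and Cdkn1c) and the 4 members of the INK4 family (Cdkn2a, Cdkn2b, Cdkn2c and Cdkn2d). They are 7 of 30503 genes in the count table, and all 7 were among the 17358 genes that passed a filter on low counts. Cdkn1c passed it with fewer than 3 counts in 6 of the 14 clones.

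CDK inhibitors restrain the kinases that drive the cell cycle. CIP/KIP proteins bind the cyclin-CDK complexes of G1 and S phase, and Cdkn1a is the best known transcriptional target of p53, the tumor suppressor encoded by Trp53. INK4 proteins bind Cdk4 and Cdk6 and keep them from D-type cyclins, which leaves the retinoblastoma protein able to hold back E2F transcription factors, and the Cdkn2a gene also encodes p19Arf, which restrains Mdm2 and thereby stabilizes p53. Both pathways are known for their frequent loss in osteosarcoma, and transcripts of Cdkn2a are known to build up in mesenchymal cells kept in culture.

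Every clone came from the femoral bone marrow of a mouse with Fgfr3-creER, a transgene in which a tamoxifen-inducible Cre recombinase is driven by Fgfr3 sequences, and with 1 R26R tdTomato reporter allele. All mice were pulsed with tamoxifen at P21. The 5 Fgfr3-WT clones were isolated at P23 and had no floxed Trp53 allele, so that the controls also carried creER and the reporter. The 5 Fgfr3-p53 cKO (P28) clones and the 4 Fgfr3-p53 cKO (P4M) clones were from Trp53 fl/fl animals and were isolated at P28 and at 4 months. As recorded for the samples, clones were at passage 8 in the Fgfr3-WT and P28 groups and at passages 6 to 8 in the P4M group. The methods of the study instead give passages 6 to 8 for the cKO clones of both ages. The study set the cKO clones against Fgfr3-WT to learn what p53 loss does to these cells, and the P4M group against P28 adds the age at isolation. The labels do not tie clones to mice, so p values measure the spread between clones, some of which may come from the same animal. Sample names begin with 1303 in every Fgfr3-WT clone and with 2963 in every cKO clone, so genotype and whatever this prefix stands for cannot be told apart. Nor can genotype be told apart from age at isolation and days in culture. Age, the time from the tamoxifen pulse to isolation, and any difference in passage cannot be told apart between P28 and P4M.

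Total counts ranged from 25688946 to 38958693 in Fgfr3-WT, from 37606033 to 48648618 in P28 and from 43757832 to 52857424 in P4M clones. Trp53 was at 49.9 to 68.2 CPM (counts scaled to a common library size) in Fgfr3-WT, at 2.18 to 2.84 CPM in P28 and at 1.72 to 2.37 CPM in P4M clones, which agrees in every clone with its label. The tdTomato row of the table held at least 52469 counts in every clone. An eGFP row, for which the labels name no allele, held 0 counts in each Fgfr3-WT clone, 1 to 9 in P28 and 36 to 97 in P4M clones. Of 8 skeletal stromal markers, none was at 0 in all clones, and their summed level was 365 to 5980 CPM in Fgfr3-WT, 27470 to 44754 CPM in P28 and 16245 to 84647 CPM in P4M clones. Most of the sum in cKO clones was the collagen genes Col1a1 and Col1a2 (means of 17846 and 16322 CPM in P28). By the test described below, 2 of the 8 were higher in P28 and 3 in P4M clones, and none was lower. Over all genes, 38.9% and 45.9% differed in these comparisons. Col1a1, the main bone collagen, fell as low as 1.45 CPM in an Fgfr3-WT clone, Col1a2 as low as 0.0326 CPM and Cxcl12 to 0 CPM. Lepr was at most 0.277 CPM in the Fgfr3-WT clones. Pdgfrb, a stromal receptor, was at 233 CPM or more in all of them, and Prrx1, Twist1 and Pdgfra were at 12.4 CPM or more. The sum of 7 hematopoietic markers was 16.4 to 145 CPM in Fgfr3-WT, 3.39 to 22.3 CPM in P28 and 5.09 to 9.19 CPM in P4M clones. In Fgfr3-WT clones most of it was Lyz2 (12.7 to 90.6 CPM) and Cd68 (3.55 to 54.3 CPM), while Ptprc, the pan-leukocyte antigen, was at most 0.154 CPM in any clone. By the same test, Lyz2 and Cd68 were lower in P28 (log2 fold changes -2.30 and -3.47) and P4M clones (-3.61 and -2.81). Csf1r, the only other of the 7 that passed the filter, was higher in P28 (1.81) and not called in P4M clones. The endothelial markers summed were Pecam1, Cdh5, Kdr and Tek. Their sum was 0.0809 to 0.740 CPM in Fgfr3-WT, 0.410 to 4.49 CPM in P28 and 2.73 to 12.8 CPM in P4M clones. Kdr, the VEGF receptor and the only 1 of these that passed the filter, was higher in P28 (log2 fold change 3.61, adjusted p = 0.0190) and P4M clones (5.56, adjusted p = 0.00224). Cdh5, the endothelial cadherin, was at 0 in every clone. The part of these markers in the results on the CDK inhibitors was not tested.

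Across the 3 groups, 4 of the 7 genes were called for any difference at a false discovery rate (FDR) of 0.05 by edgeR's quasi-likelihood test with Benjamini-Hochberg adjustment, and so were 50.6% of all genes tested. They were Cdkn1a (adjusted p = 0.000375), Cdkn1b (adjusted p = 0.00251), Cdkn2a (adjusted p = 0.0111) and Cdkn1c (adjusted p = 0.0254). Cdkn2b (adjusted p = 0.0798), Cdkn2d (adjusted p = 0.261) and Cdkn2c (adjusted p = 0.608) were not called. In P28 against Fgfr3-WT, 3 of the 7 genes were called (38.9% of all genes), with Cdkn1a lower (19.7% of all genes were lower) and with Cdkn2a and Cdkn1c higher (19.2% were higher). In P4M against Fgfr3-WT only Cdkn1b was called (45.9% of all genes), and it was lower (23.6% lower and 22.3% higher over all genes). In P4M against P28 only Cdkn1a was called (7.22% of all genes), and it was higher (3.34% higher and 3.88% lower over all genes). The shares of the 7 genes called were thus near those of all genes in P28 against Fgfr3-WT and below them in P4M against Fgfr3-WT. Both comparisons with Fgfr3-WT use the same 5 control clones.

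**Figure D1:**
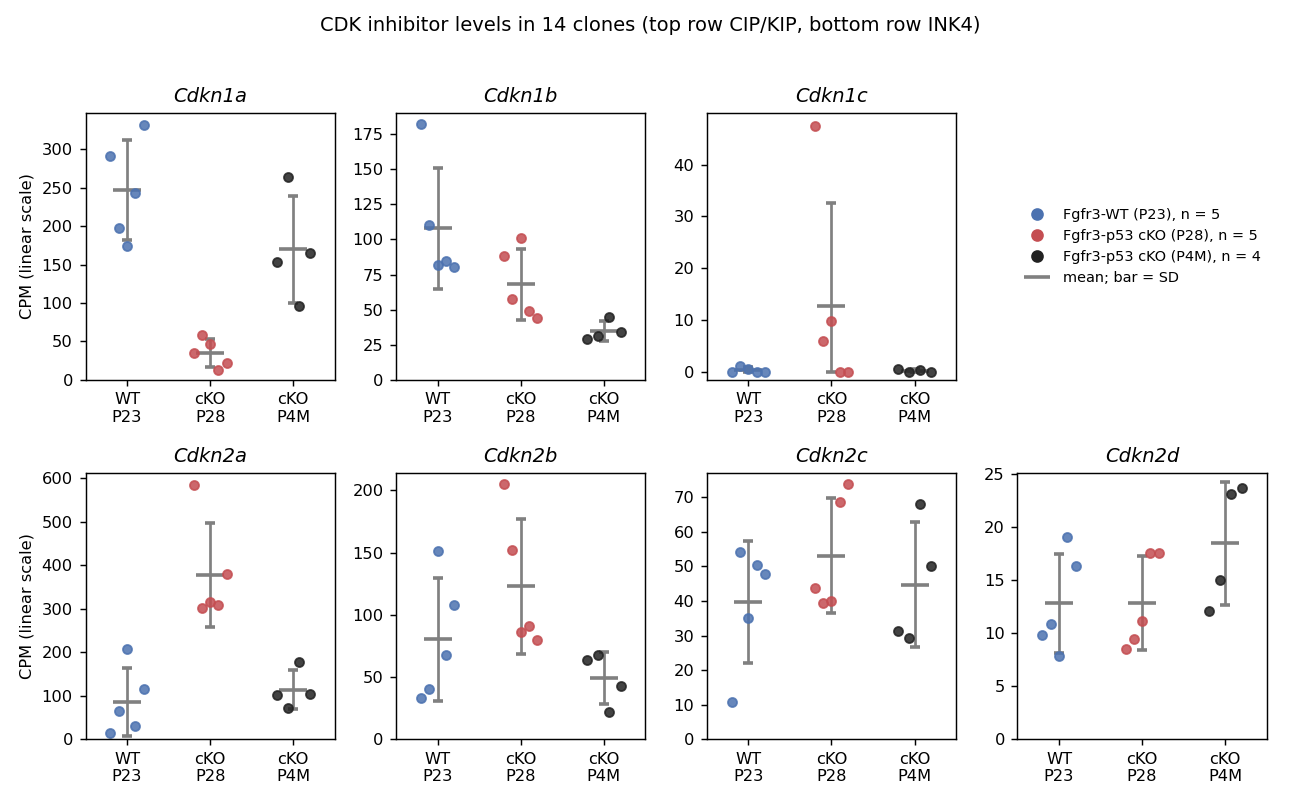
Level of each CDK inhibitor gene (CPM, linear axis) in the 5 Fgfr3-WT (P23), 5 Fgfr3-p53 cKO (P28) and 4 Fgfr3-p53 cKO (P4M) clones, with 1 point per clone in the order of replicates, the group mean and the SD (whiskers end at 0). Cdkn1a in P28 clones lies below all Fgfr3-WT and P4M clones, and Cdkn2a in P28 clones lies above all of them.

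Cdkn1a (p21, ENSMUSG00000023067) binds and inhibits Cdk2 complexes and is induced by p53 after DNA damage. The gene lies at chr17:29090976-29100727 on the plus strand of mm10 and has 5 annotated transcripts, with start sites in RefSeq that are 2790 bases apart. The stretch before the upstream start is shown because it holds a p53 response element, the feature through which the deleted factor acts. The sequence, from RefSeq promoters of GRCm38.p6, is chr17:29090729-29090975 on the plus strand, without the bases of any annotated exon, and capitals mark the element.
Cdkn1a upstream start: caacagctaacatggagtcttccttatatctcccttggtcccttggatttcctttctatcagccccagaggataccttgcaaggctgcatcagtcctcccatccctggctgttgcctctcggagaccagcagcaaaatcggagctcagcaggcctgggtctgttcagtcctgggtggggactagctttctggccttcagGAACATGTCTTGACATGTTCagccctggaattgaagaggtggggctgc
The element begins 51 bases before the start site. It was searched for on both strands as the 20-base p53 consensus without spacer, with at most 1 mismatch outside its fixed core letters. Among the 9 promoters held for 6 of the 7 genes it was found in this one alone, and in the same 250-base window it was present in 0.0578% of 32851 promoters. The window before the downstream Cdkn1a start held none. A match describes the letters and says nothing of binding in these clones.

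Cdkn1a was at 291, 198, 174, 243 and 331 CPM in Fgfr3-WT replicates 1 to 5. The P28 clones were at 35.3, 58.7, 47.1, 12.9 and 21.9 CPM. The P4M clones were at 154, 265, 96.3 and 165 CPM. All 5 P28 clones were thus below all Fgfr3-WT and all P4M clones, and 3 of the 4 P4M clones were below all Fgfr3-WT clones. Group means were 248 ± 64.8 CPM (SD, n = 5), 35.2 ± 18.5 CPM (SD, n = 5) and 170 ± 69.9 CPM (SD, n = 4). Cdkn1a fell 7.03-fold in P28 against Fgfr3-WT (log2 fold change -2.81, SE 0.40, adjusted p = 0.000223, edgeR). The P4M estimate against Fgfr3-WT, -0.54 on the log2 scale (SE 0.40, adjusted p = 0.281), did not pass the test. P4M clones exceeded P28 clones 4.83-fold (log2 fold change 2.27, SE 0.40, adjusted p = 0.00895). The Trp53 transcript left in these 2 groups, both from Trp53 fl/fl animals, was not called between them (log2 fold change -0.24, adjusted p = 0.323). Its part in the difference of Cdkn1a was not tested. Both calls on Cdkn1a were kept in every fit without 1 clone and in all 8 other alternatives. In bulk RNA, fewer cells with a transcript and less of it per cell cannot be told apart, here and for all genes that follow.

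The other genes that p53 is known to activate were set beside Cdkn1a. Of 23 such genes, 15 fell and 1 rose in P28 against Fgfr3-WT, with a median log2 fold change of -1.39 against -0.02 over all genes. Over all genes, 19.7% fell and 19.2% rose. In P4M against Fgfr3-WT, 14 fell and none rose, with a median of -1.52 against -0.06 over all genes, of which 23.6% fell and 22.3% rose. Eda2r, a death receptor of the TNF family, had a log2 fold change of -5.42 in P28 and -4.13 in P4M clones. Fas, another death receptor, changed by -3.17 and -4.57, Phlda3, an Akt inhibitor, by -2.60 and -1.81, and Btg2, an antiproliferative gene, by -2.39 and -3.10. Mdm2, the ligase that degrades p53, changed by -2.12 and -1.64. Cdkn1a stood near the low end of the list in P28 clones, with 2 of the 23 genes below it and 21 above. In P4M clones 16 of the 23 genes lay below Cdkn1a. Between P4M and P28 the median was -0.16, and 2 of the 23 genes were called, near the 7.22% of all genes. Both were lower (Plk2, a polo-like kinase, -1.98, and Tnfrsf10b, a TRAIL receptor, -1.35). Plk2 was the gene that rose in P28 against Fgfr3-WT (1.64), and it was not called in P4M against Fgfr3-WT (-0.34). Between P4M and P28, only Gdf15, a secreted stress factor, had a larger log2 fold change than Cdkn1a. Gdf15 was not called (3.27, adjusted p = 0.179). No test set Cdkn1a against the list.

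**Figure D2:**
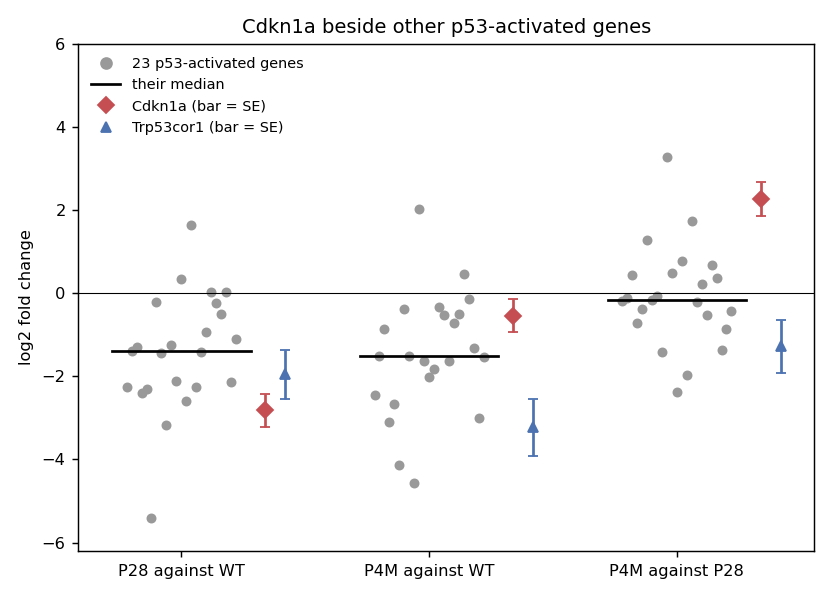
Log2 fold change (y axis) in the 3 comparisons for 23 other p53-activated genes (grey, 1 point per gene, line at their median), for Cdkn1a (red, bar = SE) and for its neighbor Trp53cor1 (blue, bar = SE). Cdkn1a lies at -2.81 (P28) and -0.54 (P4M) against Fgfr3-WT, and at 2.27 between the cKO groups, where the median of the list is -0.16.

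The nearest tested gene at lower coordinates was Trp53cor1, a long noncoding RNA gene 11.8 kb from Cdkn1a that p53 also induces. It fell in P28 (log2 fold change -1.95, SE 0.59, adjusted p = 0.0187) and in P4M clones (-3.23, SE 0.68, adjusted p = 0.00204), and in P4M against P28 its log2 fold change was -1.28 (SE 0.63, adjusted p = 0.220). The direction of its estimate between the cKO groups was thus opposite to that of Cdkn1a. On the other side, Rab44, a large Rab GTPase gene 13.4 kb away, was higher in both cKO groups (5.17, adjusted p = 0.00894, and 4.30, adjusted p = 0.0233). An annotated transcript on the opposite strand, AC167363.2, shares 273 exonic bases with Cdkn1a and had 326 counts over all 14 clones, against at least 641 counts of Cdkn1a in each clone.

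Cdkn1b (p27, ENSMUSG00000003031, chr6:134920401-134925513, plus strand) inhibits Cdk2 with cyclin E or A and is known to be held in check mainly by protein degradation. Its level was 182, 110, 81.7, 84.7 and 80.5 CPM in Fgfr3-WT clones. It was 88.1, 57.5, 101, 49.1 and 44.3 CPM in P28 clones. It was 28.8, 31.0, 44.5 and 34.3 CPM in P4M clones. All 4 P4M clones were below all Fgfr3-WT clones and 3 of them were below all P28 clones, while 3 of the 5 P28 clones were below all Fgfr3-WT clones. Cdkn1b fell 3.11-fold in P4M against Fgfr3-WT (log2 fold change -1.64, SE 0.31, adjusted p = 0.00104, edgeR), and this call was kept in every alternative run. The estimate in P28 against Fgfr3-WT was -0.67 (SE 0.28, adjusted p = 0.0755), and without P28 replicate 3 it passed (-0.87, adjusted p = 0.0288). In P4M against P28 it was -0.97 (SE 0.30, adjusted p = 0.0659), which passed without P28 replicate 5 (adjusted p = 0.0479), without Fgfr3-WT replicate 1 (adjusted p = 0.0286), with DESeq2 (adjusted p = 0.0248) and with these groups alone in the fit (adjusted p = 0.0381). Lockd, a noncoding RNA gene 3.58 kb downstream, rose in both cKO groups (2.61, adjusted p = 0.000818, and 2.04, adjusted p = 0.00333). On the other side 2810454H06Rik, 19.3 kb away, was not called (-0.81, adjusted p = 0.0610, and -0.87, adjusted p = 0.0533), with estimates in the direction of those of Cdkn1b.

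Cdkn1c (p57, ENSMUSG00000037664, chr7:143458339-143461050, minus strand) is an imprinted growth restrainer expressed from the maternal allele. It had 0, 30, 16, 1 and 0 counts in Fgfr3-WT clones. The P28 clones had 2209, 248, 492, 2 and 0 counts, or 47.5, 5.93, 9.78, 0.0403 and 0 CPM. The P4M clones had 25, 4, 22 and 0 counts. The 3 P28 clones with at least 248 counts exceeded every clone of the other groups, and the other 2 P28 clones lay within the Fgfr3-WT range. A count of 0 allows up to 3 counts, which is at most 0.121 CPM in any Fgfr3-WT clone, for counting error only. The gene was called higher in P28 against Fgfr3-WT (log2 fold change 5.13, SE 1.88, adjusted p = 0.0446, edgeR), but the fitted size depends on clones near 0. The call was lost in 10 of 14 fits without 1 clone, with a log2 fold change of 3.40 and an adjusted p of 0.148 without P28 replicate 1 and of 4.74 to 5.44 in the other 9 of these fits. It was also lost in 4 of 7 other alternatives. For P4M clones the estimates were -0.38 against Fgfr3-WT (SE 1.81, adjusted p = 0.880) and -5.51 against P28 (SE 2.10, adjusted p = 0.119), and neither passed the test. An antisense gene, Gm44732, overlaps 625 of its exonic bases and had 5 counts over all clones. The antisense transcript Kcnq1ot1, which silences this imprinted domain on the paternal chromosome, lies 162 kb away and was not called in any comparison (0.97 in P28 against Fgfr3-WT, adjusted p = 0.584). On the other side Slc22a18, an imprinted transporter gene 12.7 kb away, was lower in P28 (-2.23, adjusted p = 0.0489) and P4M clones (-2.39, adjusted p = 0.0467).

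**Figure D3:**
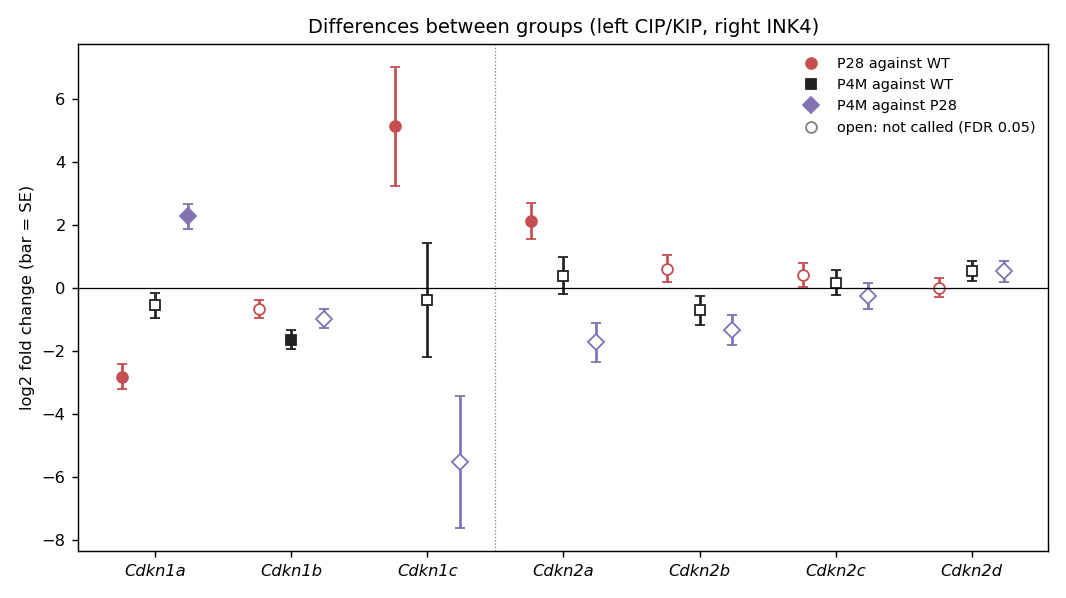
Log2 fold change of the 7 genes (x axis, CIP/KIP left and INK4 right of the dotted line) in P28 against Fgfr3-WT (circles), P4M against Fgfr3-WT (squares) and P4M against P28 (diamonds), bars = SE, filled where called at an FDR of 0.05. Filled are Cdkn1a in P28 against Fgfr3-WT (-2.81) and between the cKO groups (2.27), Cdkn1b in P4M against Fgfr3-WT (-1.64), and Cdkn1c (5.13) and Cdkn2a (2.12) in P28 against Fgfr3-WT.

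Cdkn2a (ENSMUSG00000044303, chr4:89274471-89294653, minus strand) encodes p16Ink4a and p19Arf from different first exons. Its annotated transcripts start 12461 bases apart and share 575 exonic bases, which are 67.5% of Cdkn2a-201 (the downstream start, p16Ink4a) and 64.2% of Cdkn2a-202 (the upstream start, p19Arf). A gene count cannot separate them. The sequences before both starts are shown because 1 of them holds an E2F word and because their base compositions differ. They are RefSeq promoters of GRCm38.p6 on the minus strand without bases of annotated exons, chr4:89294654-89294869 before the upstream start and chr4:89282193-89282442 before the downstream start, and capitals mark the E2F word.
Cdkn2a upstream start: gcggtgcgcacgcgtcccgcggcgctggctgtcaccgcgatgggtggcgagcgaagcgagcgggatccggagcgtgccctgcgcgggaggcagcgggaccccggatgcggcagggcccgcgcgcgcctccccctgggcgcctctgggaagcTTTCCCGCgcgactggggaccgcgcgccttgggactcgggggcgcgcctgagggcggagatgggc
Cdkn2a downstream start: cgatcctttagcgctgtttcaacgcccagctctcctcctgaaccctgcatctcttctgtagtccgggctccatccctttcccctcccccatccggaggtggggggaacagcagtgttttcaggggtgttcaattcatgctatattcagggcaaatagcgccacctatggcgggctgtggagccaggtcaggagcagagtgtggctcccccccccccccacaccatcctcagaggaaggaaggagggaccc
The printed upstream stretch was 78.7% G or C with 35 CpG dinucleotides in 216 bases, and the downstream stretch was 60.0% G or C with 7 CpG in 250 bases. E2F words (TTTCGCGC, TTTGGCGC or TTTCCCGC on either strand) occurred in 1.53% of all promoters in the 250-base window. Among the 9 promoters held for 6 of the 7 genes, none of which was of Cdkn1c, they occurred only before the Cdkn2a upstream start. Of the other words searched on both strands, the GC box GGGCGG occurred in 32.7% of all promoters, CCAAT in 33.8%, TATAAA in 12.4% and the E-box CACGTG in 6.02%. GGGCGG was present before the Cdkn2a upstream start, the downstream Cdkn1a start, and starts of Cdkn1b, Cdkn2c and Cdkn2d. CCAAT was present for Cdkn1b and Cdkn2d, and TATAAA and CACGTG for none of these windows.

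Cdkn2a was at 13.9, 65.1, 208, 31.6 and 115 CPM in Fgfr3-WT clones, a 14.9-fold range. P28 clones were at 583, 302, 316, 308 and 379 CPM. P4M clones were at 102, 72.4, 178 and 104 CPM. All 5 P28 clones were above all Fgfr3-WT and all P4M clones, and the P4M clones lay within the Fgfr3-WT range. Group means were 86.7 ± 77.9 CPM (SD, n = 5), 378 ± 119 CPM (SD, n = 5) and 114 ± 45.2 CPM (SD, n = 4). Cdkn2a rose 4.36-fold in P28 against Fgfr3-WT (log2 fold change 2.12, SE 0.57, adjusted p = 0.0101, edgeR), a call kept in every alternative run. The size moved more, to 2.74 without Fgfr3-WT replicate 3 and to 2.93 and 2.92 with limma on log2(TPM + 0.1) and log2(TPM + 1). For P4M against Fgfr3-WT the estimate was 0.40 (SE 0.58, adjusted p = 0.603). In P4M against P28 it was -1.73 (SE 0.61, adjusted p = 0.0946), and it passed without Fgfr3-WT replicate 1 (adjusted p = 0.0361), with DESeq2 (adjusted p = 0.0252) and with these groups alone in the fit (adjusted p = 0.00843). Mtap, a methionine salvage gene 93.4 kb away that is often co-deleted with Cdkn2a in tumors, was present in all groups and was higher in P28 (log2 fold change 1.10, adjusted p = 0.00293) and P4M clones (0.93, adjusted p = 0.00857).

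Cdkn2b (p15, ENSMUSG00000073802, chr4:89306299-89311039, minus strand) lies 11.6 kb from Cdkn2a and encodes an INK4 protein known to be induced by TGF-beta. It was at 33.4, 40.8, 151, 68.1 and 108 CPM in Fgfr3-WT clones. P28 clones were at 205, 152, 86.4, 91.5 and 79.6 CPM. P4M clones were at 63.6, 67.5, 22.4 and 43.2 CPM. The P4M clones were all below the P28 clones, while the ranges of P28 and Fgfr3-WT overlapped. No comparison passed the test, with log2 fold changes of 0.61 in P28 against Fgfr3-WT (SE 0.44, adjusted p = 0.287), -0.71 in P4M against Fgfr3-WT (SE 0.47, adjusted p = 0.233) and -1.32 in P4M against P28 (SE 0.48, adjusted p = 0.103). The last passed with DESeq2 (adjusted p = 0.0392), with limma on log2(TPM + 0.1) (adjusted p = 0.0489) and with these groups alone (adjusted p = 0.0467). In both Fgfr3-WT replicate 3 and replicate 5, Cdkn2a and Cdkn2b held the highest values of their group. Gm12609, a noncoding gene 70.9 kb from Cdkn2b, rose in P28 clones (2.73, adjusted p = 0.00874).

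Cdkn2c (p18, ENSMUSG00000028551, chr4:109660876-109667189, minus strand) and Cdkn2d (the INK4 protein p19, distinct from p19Arf, ENSMUSG00000096472, chr9:21288410-21291407, minus strand) are INK4 members expressed in proliferating cells. Cdkn2c was at 10.8, 54.3, 35.2, 50.2 and 47.8 CPM in Fgfr3-WT clones, at 43.7, 39.5, 39.9, 68.5 and 73.9 CPM in P28 clones and at 31.4, 29.4, 68.1 and 50.04 CPM in P4M clones. The groups overlapped, and Fgfr3-WT replicate 1 was the lowest clone of all. The log2 fold changes of Cdkn2c were 0.42 (SE 0.38, adjusted p = 0.404), 0.17 (SE 0.40, adjusted p = 0.748) and -0.25 (SE 0.40, adjusted p = 0.745), for P28 and then P4M clones against Fgfr3-WT and last for P4M against P28. Cdkn2d was at 9.87, 10.9, 7.89, 19.1 and 16.3 CPM in Fgfr3-WT, at 8.54, 9.44, 11.2, 17.6 and 17.5 CPM in P28 and at 12.1, 15.1, 23.2 and 23.7 CPM in P4M clones. Its groups overlapped, with 2 of the 4 P4M clones above all others. The log2 fold changes of Cdkn2d were 0.01 (SE 0.30, adjusted p = 0.990), 0.53 (SE 0.32, adjusted p = 0.190) and 0.52 (SE 0.32, adjusted p = 0.317), in the same order. Faf1, the gene 9.40 kb from Cdkn2c, rose in both cKO groups (0.64 and 1.08), while 9630013D21Rik, 3.02 kb away on its other side, was not called (0.15 and -0.12). Kri1, 0.44 kb from Cdkn2d, rose in P4M clones (0.48, adjusted p = 0.0359), and Slc44a2, 29.3 kb away on its other side, fell in them (-1.18, adjusted p = 0.00689).

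Within the P28 group, replicates 4 and 5 had the lowest Cdkn1a, Cdkn1b and Cdkn1c and the highest Cdkn2c and Cdkn2d. Among Fgfr3-WT clones, replicate 1 had the highest Cdkn1b and the lowest Cdkn2a, Cdkn2b and Cdkn2c. In P4M clones, replicate 3 had the lowest Cdkn1a and Cdkn2b and the highest Cdkn1b, Cdkn2a and Cdkn2c. Relative to the group mean, Cdkn2a varied most in Fgfr3-WT clones among the 6 genes other than Cdkn1c (coefficient of variation 89.8%, against 31.5% in P28 and 39.6% in P4M), and Cdkn1a varied most in P28 clones (52.5%, against 26.2% in Fgfr3-WT).

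Levels of different genes were compared per length, in TPM, a unit scaled by transcript length and library size. In Fgfr3-WT clones the mean order was Cdkn1a (209 TPM), Cdkn2a (191 TPM), Cdkn2b (94.5 TPM), Cdkn1b (55.5 TPM), Cdkn2c (49.0 TPM), Cdkn2d (14.8 TPM) and Cdkn1c (0.530 TPM). Of these neighbors in rank, Cdkn1a exceeded Cdkn2a in 4 of 5 clones, Cdkn2a exceeded Cdkn2b in 3 and Cdkn2b exceeded Cdkn1b in 3, so that the upper ranks did not separate beyond the spread between clones, and Cdkn1b exceeded Cdkn2c in 1 clone only. In P28 clones Cdkn2a (979 TPM) was above Cdkn2b (174 TPM) and Cdkn2b above Cdkn2c (57.7 TPM) in all 5 clones. Cdkn1b (41.0 TPM), Cdkn1a (34.1 TPM), Cdkn2d (18.1 TPM) and Cdkn1c (18.0 TPM) followed, with their order differing between clones. In P4M clones Cdkn2a (254 TPM) was above Cdkn1a (145 TPM) in 3 of 4 clones, and Cdkn1a was above Cdkn2b (61.3 TPM) in all 4. The most abundant of the 7 genes was Cdkn1a in 4 Fgfr3-WT clones and 1 P4M clone, and Cdkn2a in 1 Fgfr3-WT, 5 P28 and 3 P4M clones.

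**Figure D4:**
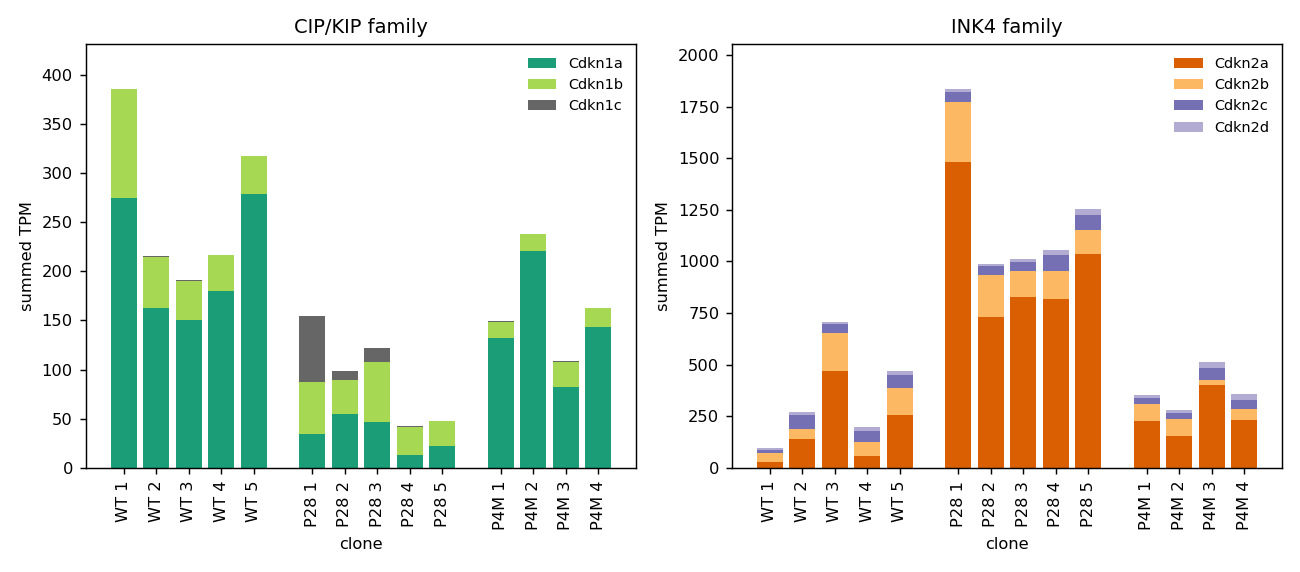
Summed TPM of the CIP/KIP genes (left) and of the INK4 genes (right) in each of the 14 clones, stacked by gene and with different y scales. INK4 bars of P28 clones reach 988 to 1833 TPM, mostly Cdkn2a, and CIP/KIP bars of P28 clones reach 42.2 to 154 TPM.

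Summed over the family, CIP/KIP transcripts were at 191 to 385 TPM in Fgfr3-WT, 42.2 to 154 TPM in P28 and 109 to 238 TPM in P4M clones. The P28 clones were all below Fgfr3-WT. Transcripts of INK4 genes were at 98.9 to 707 TPM in Fgfr3-WT, 988 to 1833 TPM in P28 and 282 to 515 TPM in P4M clones, and the P28 clones were above all others. This sum holds all Cdkn2a transcripts. Any that encode p19Arf, which acts on Mdm2, could not be separated from those of p16Ink4a, here and in the ratios below. The sum of all 7 genes averaged 614 ± 215 TPM (SD, n = 5), 1322 ± 382 TPM (SD, n = 5) and 541 ± 55.3 TPM (SD, n = 4). Cdkn1a made up 71.3% to 87.8% of the CIP/KIP sum in Fgfr3-WT, 22.1% to 55.4% in P28 and 75.8% to 92.6% in P4M clones. Cdkn2a made up 28.7% to 66.4% of the INK4 sum in Fgfr3-WT, 73.9% to 82.6% in P28 and 55.4% to 77.8% in P4M clones. The ratio of INK4 to CIP/KIP TPM was 0.257 to 3.69 in Fgfr3-WT, 8.28 to 26.0 in P28 and 1.19 to 4.73 in P4M clones. The ratio of Cdkn2a to Cdkn1a was 0.112 to 3.12 in Fgfr3-WT, 13.4 to 63.8 in P28 and 0.7102 to 4.85 in P4M clones. Both ratios separated P28 from the other groups without overlap. For Cdkn2a to Cdkn1a this had to follow from the levels of the single genes. Cdkn2a was at 730 TPM or more in P28 clones and at most at 469 TPM in any other. Cdkn1a was at most at 54.7 TPM in P28 clones and at 82.5 TPM or more in all others. The family ratio contains the same genes, so the ratios are independent neither of each other nor of these levels. The sums and ratios are given as descriptions, without a test.

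**Figure D5:**
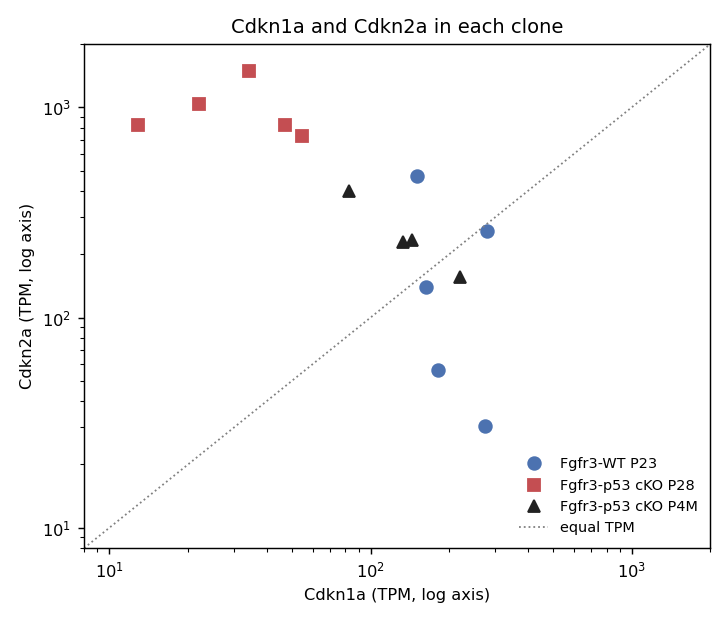
Cdkn2a against Cdkn1a in TPM (both axes logarithmic), 1 point per clone, with a dotted line at equal TPM. The 5 P28 clones lie at the upper left (ratio of Cdkn2a to Cdkn1a 13.4 to 63.8), apart from Fgfr3-WT (0.112 to 3.12) and P4M clones (0.7102 to 4.85). The separation of the ratio follows from Cdkn2a being higher and Cdkn1a lower in P28 clones than in all others.

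The kinases and cyclins that these inhibitors bind were examined next. Cdk4, a target of INK4 proteins, rose in P28 (log2 fold change 0.61, adjusted p = 0.00339) and P4M clones (0.58, adjusted p = 0.00517), and so did Cdk6 (1.14, adjusted p = 0.00627, and 0.92, adjusted p = 0.0207). With any p19Arf transcripts of Cdkn2a included, INK4 TPM per TPM of Cdk4 and Cdk6 together was 0.325 to 2.91 in Fgfr3-WT, 1.48 to 3.22 in P28 and 0.669 to 0.921 in P4M clones. The P4M values thus lay below all P28 values and within the Fgfr3-WT range. Of 11 cyclin and kinase genes, 6 rose and 1 fell in each cKO group against Fgfr3-WT, with median log2 fold changes of 1.09 and 0.58 against -0.02 and -0.06 over all genes. Over all genes, 38.9% and 45.9% were called in these comparisons. The mitotic cyclin Ccnb1 changed by 4.604 and 4.52, the S phase cyclin Ccna2 by 3.67 and 3.88, and Ccne2, a Cdk2 partner, by 2.57 and 2.60. Ccnd2, the D-type cyclin that fell, changed by -0.69 and -1.11. Ccnd1 (-0.15 and 0.07), Ccne1 (1.09 and 0.14) and Cdk2 (0.61 and 0.34) were not called. None of the 11 was called in P4M against P28, where 7.22% of all genes were called. All 4 proliferation genes rose in both cKO groups, among them Top2a (3.83 and 4.18) and Mki67 (3.62 and 3.65).

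Downstream of the INK4 proteins, 4 of 11 pocket protein and E2F genes rose in P28 and 5 rose in P4M clones, with 1 lower in P4M (Rbl2, -0.49), so that 4 and 6 of the 11 were called, near the 38.9% and 45.9% of all genes. Their median log2 fold changes were 0.46 and 0.56. The repressor E2Fs E2f7 (4.34 and 4.34) and E2f8 (2.77 and 2.52) had the largest changes. In P4M against P28, Rb1, the retinoblastoma gene, was higher (1.18, adjusted p = 0.0254, edgeR). It was the only one of the 11 called, near the 7.22% of all genes. Among 9 genes for ligase subunits that degrade CIP/KIP proteins, 3 rose and 1 fell in P28 and 4 rose and 1 fell in P4M clones, with medians of 0.45 and 0.28. The 4 and 5 of 9 genes called were again near the 38.9% and 45.9% of all genes. Skp2, which marks Cdkn1b protein for degradation, rose by 2.04 and 1.33, and its cofactor Cks1b by 1.55 and 1.62. Dtl, the receptor for Cdkn1a protein at replicating DNA, rose by 2.62 and 2.83, while Skp1a changed by -0.42 and -0.45. These are transcript levels, and protein levels of the inhibitors were not measured.

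Upstream of Cdkn2a, 12 genes known to repress the Ink4a/Arf locus were followed. In P28 clones 3 fell (Cbx7, -0.95; Ring1, -0.88; Eed, -0.58) and 1 rose (Suz12, 0.53), and in P4M clones 4 fell, among them Cbx7 (-1.82) and Eed (-0.80), and 2 rose (Suz12, 0.68, and Kdm2b, 0.48). The 4 and 6 of 12 genes called were near the shares of all genes (38.9% and 45.9%), and the medians were -0.11 and -0.21. The genes called are Polycomb group components and a histone demethylase. Bmi1, the best known of the 12, changed by -0.20 and -0.15 and was not called. None of the 12 was called in P4M against P28, where 7.22% of all genes were called.

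Of 14 transcription factors known to activate CDK inhibitor genes, 13 were tested. In P28 clones 6 rose and 2 fell, with Foxo3, an activator of Cdkn1b, at -1.13, Klf6 at 0.98, Smad3, the TGF-beta effector, at 0.90 and Sp1 at 0.76. In P4M clones 6 rose and 1 fell, with Klf4 at 1.93, Sp1 at 0.98, Klf6 at 0.94 and Foxo4 at -0.90. The 8 and 7 of 13 genes called stood against 38.9% and 45.9% of all genes, and the medians were 0.45 and 0.60. In P4M against P28, where 7.22% of all genes were called, only Klf4 of the 13 was called (log2 fold change 2.51, adjusted p = 0.0276, edgeR). Klf4 is a zinc finger factor known to activate Cdkn1a. It was at 13.3 to 160 CPM in Fgfr3-WT, at 51.6 to 62.4 CPM in P28 and at 262 to 400 CPM in P4M clones, so that it was higher in all P4M clones than in any other. Its part in the level of Cdkn1a was not tested.

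For each of the 7 genes, the genes with the most similar profile over the 14 clones were found by the root mean square difference of centered log2 CPM. The nearest to Cdkn1a was Kif21a, a kinesin gene (0.57 log2 units, against 1.44 for the spread of Cdkn1a itself), and the next was Gm29668 (0.67). The nearest to Cdkn1b was Zfp975, a zinc finger gene (0.22 against 0.75). For Cdkn2a it was Gcnt4, a glycosyltransferase gene (0.66 against 1.44), and for Cdkn2b it was Ssbp3 (0.48 against 0.86). For Cdkn1c it was Cpxm2 (1.46 against 3.12). The nearest to Cdkn2c was 9330159M07Rik (0.32 against 0.67) and the nearest to Cdkn2d was Zfp948 (0.28 against 0.51). The next nearest were Zfp108 (0.26) for Cdkn1b, Egfr (1.73) for Cdkn1c, Myorg (0.72) for Cdkn2a, Ropn1l (0.51) for Cdkn2b, H2-T22 (0.33) for Cdkn2c and Pgp (0.30) for Cdkn2d. Among the 7 genes themselves, the closest pair was Cdkn2c and Cdkn2d (0.59), and no member was among the nearest 2 genes of another.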

How the data were processed

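Libraries were made from total RNA of 14 clones with the SMART-Seq v4 kit, which does not mark strand, and sequenced by the authors. The submitters' processing notes name FastQC, TopHat, Bowtie2, HTSeq and DESeq2 with mm10, without versions. The raw count table deposited by the authors, of reads assigned to 1 gene only, was tested, and their deposited TPM values served for levels between genes. Genes were kept by filterByExpr (17358 genes), scaled by TMM and tested with edgeR 4.0.16 in R 4.3.3 (glmQLFit, robust, 14 clones, group as the only term), with Benjamini-Hochberg adjustment and an FDR of 0.05. The SE is the absolute log2 fold change over the square root of F. CPM used TMM library sizes, and log2 CPM a prior count of 2. The filter keeps a gene high in 1 group only. Alternatives were DESeq2 1.42.0, limma 3.58.1 on log2(TPM + 1) and log2(TPM + 0.1), RLE or no scaling, no filter, at least 10 counts in every clone, only the groups compared, and leaving out each clone. Loci are from GENCODE M21 and promoters from RefSeq (GRCm38.p6). The limit given for 0 counts covers counting error only, since PCR copies were not told apart.

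The 7 genes and the lists of other genes were chosen with earlier results of these data known. From each list at most 4 called genes with the largest change in a comparison were named, with direct partners of the inhibitors, the nearest tested gene on each side, overlapping genes and the 2 genes of nearest profile. Genes that make up a count of 5 or fewer, markers and the p53 response element were named after their values or sequences were seen. The expected count table (the same whole numbers over more genes) and the FPKM, rlog and depth-normalized tables were not used.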

Additional observations from a re-analysis of the deposited data

Results flagged for a closer look

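Cdkn2c in Fgfr3-WT replicate 1 was flagged because it lay far below the other 4 clones of its group. Its level was 10.8 CPM, and on the log2 scale its gap to the next clone made up 0.731 of the range of the group. It was 1 of 21 gene and group sets examined this way, and chance gives about 1 in 20. The same clone had the lowest Cdkn2a and Cdkn2b and the highest Cdkn1b of the Fgfr3-WT group. Cdkn1a was flagged because it passed the direct test of P4M against P28, with a log2 fold change of 2.271 (adjusted p = 0.00895, edgeR). This is the result already given above and not a second one. All 4 P4M clones were above all 5 P28 clones.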

How the results depend on the processing

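No paired analysis was possible because the labels give no replicate numbers shared between groups. The number of the 7 genes called was 3 in P28 against Fgfr3-WT (2 to 3 without 1 clone, and 2 to 3 in the other alternatives), 1 in P4M against Fgfr3-WT (1 in every alternative) and 4 for any difference among the 3 groups (3 to 5 in both sets). In P4M against P28 it was 1, with 1 to 3 without 1 clone (3 without Fgfr3-WT replicate 1 and 2 without P28 replicate 5), 4 with DESeq2, 4 with these groups alone and 2 with limma on log2(TPM + 0.1). Over all genes this comparison called 1254 genes, and 2607 with DESeq2. Estimates near 0 turned direction. Cdkn1c in P4M against Fgfr3-WT was 0.30 with limma on log2(TPM + 0.1) and ranged from -1.02 to 0.76 without 1 clone. Cdkn2c in P4M against Fgfr3-WT was -0.25 with limma on either TPM scale, and ranged from -0.095 to 0.34 without 1 clone. Cdkn2d in P28 against Fgfr3-WT was -0.0037 with these groups alone and ranged from -0.15 to 0.19 without 1 clone. The cause was not tested. On the TPM scale with a pseudocount of 0.1 the median over all genes moved from -0.02 to 0.31 in P28 against Fgfr3-WT. Depth limits only Cdkn1c, which was left out under the filter of 10 counts in every clone.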
